A study of Mus musculus with 69 samples.

Results

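The 34 genes described here code for the transporters, enzymes and regulators of glycolysis and for the sensors and targets of the hypoxia response. They were taken by name from a list. Each was read from 1 Affymetrix probe set, the one with the highest mean log2 signal over 69 single cells among the probe sets annotated to that gene alone. Of the 34 genes, 33 could be read, out of 18194 genes read in all. Bnip3l has no level below, because its probe sets are also annotated to its pseudogene Bnip3l-ps.

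Each sample is 1 cell of the dorso-lateral cerebral wall of a CD1 mouse embryo at embryonic day 14, with no mutation or treatment named in the labels. The 66 VZ/SVZ cells came from fragments of the ventricular and subventricular zones, where progenitors divide. The 3 CP cells came from fragments of the cortical plate, where young neurons settle. For these 3 cells the description field of the labels names the VZ/SVZ, and the source field was followed. Fragments were digested with trypsin, and cells were picked by hand without a marker. The study amplified cDNA of 102 cells and put 70 of them on arrays. The labels do not tie a cell to an embryo or a culture, so the cells of a group count as 1 sample. No test between groups was made, and every SD is a spread between cells. A difference of at least 1 log2 unit (2-fold) between group means is used below as a rule of size, not as a call of change.

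A gene is called detected in a cell where its signal was above 50, and lower signals were set to 50 before log2 was taken, which gives a floor of 5.64 without order among the values at it. The VZ/SVZ cells were divided by the same threshold. The Sox2 class holds the 20 cells with Sox2, a transcription factor of apical progenitors, and without Eomes and Tubb3. The Eomes class holds the 28 cells with Eomes, a transcription factor of intermediate progenitors. The Tubb3 class holds the 10 cells with Tubb3, a tubulin of neurons, and without Sox2 and Eomes, and 8 more cells had both Sox2 and Tubb3. The values nearest to the threshold on either side were 47.8 and 96.3 for Sox2, 40.8 and 245 for Eomes, and 39.1 and 124 for Tubb3. The cell at 47.8 has Eomes, so it bears only on the division of the Eomes class by Sox2. Over 9 apical progenitor markers other than Sox2, 88.3% of the values of the Sox2 class were above 50, against 67.1% in the Eomes class, 23.3% in the Tubb3 class and 14.8% in CP. Over 6 intermediate progenitor markers other than Eomes these shares were 50%, 83.9%, 48.3% and 33.3%. Of the 20 Sox2 class cells, 17 had Neurog2, 16 Btg2, 15 Insm1, 10 Hes6, 2 Gadd45g and 0 Neurod1. Over 8 neuron markers other than Tubb3 the shares were 28.1%, 47.3%, 92.5% and 100%. Many Eomes class cells thus had neuron markers too: 17 of 28 had Tubb3, 24 Dcx and 12 Tbr1. The names of the samples carry a letter that the labels do not explain and that overlaps with the classes: 15 of the 20 Sox2 class cells have the letter X, 7 of the 10 Tubb3 class cells have D, and the 3 CP cells have E.

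The cells differed in depth and in the spike RNAs added to them. The median number of genes above 50 was 4950 in the Sox2 class, 4644.5 in the Eomes class, 4161 in the Tubb3 class and 3904 in CP. The thr spike, at 5 copies per cell, was above 50 in 10 of 20 Sox2 class cells, 11 of 28 Eomes class cells, 2 of 10 Tubb3 class cells and 0 of 3 CP cells. The phe spike, at 20 copies, was above 50 in all of these cells and read 9.92 ± 1.01 in the Sox2 class, 9.77 ± 0.83 in the Eomes class, 9.79 ± 1.10 in the Tubb3 class and 8.75 ± 0.82 in CP. Their part in the lower shares of cells given below was not tested. No marker of endothelial cells, microglia or erythroid cells (5, 4 and 5 genes) was above 50 in any cell. Of 4 pericyte and meningeal markers, Col1a2 was above 50 in 2 Sox2 class cells and Pdgfrb in 1 Eomes class cell and 1 cell with Sox2 and Tubb3. Of 4 interneuron markers, Dlx2 and Gad1 were each above 50 in 1 Eomes class cell. Of 6 stress genes, Jun was above 50 in 17 of 20 Sox2 class cells, 9 of 28 Eomes class cells, 3 of 10 Tubb3 class cells and 0 of 3 CP cells. Its part in the differences below was not tested either. Fos, Egr1, Hspa1a, Hspa1b and Atf3 were above 50 in no Sox2 class, Tubb3 class or CP cell. Fos was above 50 in 1 Eomes class cell and Hspa1b in 2 of 8 cells with Sox2 and Tubb3. Gapdh has 3 control probe sets along its transcript. The 3′ set, from which Gapdh is read below, read higher than the 5′ set by a median of 1.84 (0.13 to 6.88 over 69 cells). The 5′ set was above 50 in 66 cells. In the Sox2, Eomes and Tubb3 classes and CP, the 5′ means were 9.80, 10.64, 9.37 and 8.31. The 3′ means were 12.53, 12.47, 11.76 and 11.80 in the same order. What sets the classes apart in this was not tested.

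Glycolysis splits glucose into pyruvate in a chain of enzymes. Glucose enters through the Slc2a transporters, is phosphorylated by hexokinases, committed by phosphofructokinases and carried down to pyruvate, which lactate dehydrogenases turn into lactate. Many steps have isoforms, and developing neurons and progenitors are known to use different ones. In the hypoxia response the prolyl hydroxylases Egln1 and Egln3 mark the transcription factor subunits Hif1a and Epas1 for destruction while oxygen is present. In low oxygen the factor is stable and binds a short DNA core, ACGTG or GCGTG, at genes of glucose uptake, glycolysis, angiogenesis and mitochondrial removal. The wall of the forebrain is vascularised from its outer surface during development.

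The promoter windows of 4 genes are shown because the levels of these genes differed between the classes: Slc2a1, Hk2 and Ldha read at least 1 log2 unit lower in the Tubb3 class than in the Sox2 class, and 7 of the 8 cells with Eno2 were Tubb3 class or CP cells. The windows run from 250 bases before to 50 bases after an annotated RefSeq start (build GRCm38.p6), and capitals mark ACGTG and GCGTG on either strand, where overlapping matches are counted singly. They are Slc2a1 at chr4:119108495-119108794 (plus strand), Hk2 at chr6:82774405-82774704 (minus strand), Ldha at chr7:46845554-46845853 (plus strand, the first of 2 windows) and Eno2 at chr6:124769624-124769923 (minus strand).
Slc2a1: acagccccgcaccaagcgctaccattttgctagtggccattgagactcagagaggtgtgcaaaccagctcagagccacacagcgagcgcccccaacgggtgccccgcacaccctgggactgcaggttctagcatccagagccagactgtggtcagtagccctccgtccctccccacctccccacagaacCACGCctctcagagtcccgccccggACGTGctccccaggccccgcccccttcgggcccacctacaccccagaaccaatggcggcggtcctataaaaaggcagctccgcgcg
Hk2: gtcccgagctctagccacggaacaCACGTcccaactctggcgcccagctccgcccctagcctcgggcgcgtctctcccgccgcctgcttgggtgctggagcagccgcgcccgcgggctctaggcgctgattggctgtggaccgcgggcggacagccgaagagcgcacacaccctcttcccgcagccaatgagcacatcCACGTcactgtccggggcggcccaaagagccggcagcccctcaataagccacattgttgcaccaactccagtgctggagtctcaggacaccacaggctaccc
Ldha: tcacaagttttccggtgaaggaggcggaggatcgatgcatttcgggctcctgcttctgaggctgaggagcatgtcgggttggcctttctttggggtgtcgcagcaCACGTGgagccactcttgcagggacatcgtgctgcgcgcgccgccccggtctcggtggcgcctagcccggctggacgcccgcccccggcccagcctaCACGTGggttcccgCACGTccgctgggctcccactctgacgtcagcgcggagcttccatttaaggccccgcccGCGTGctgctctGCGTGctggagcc
Eno2: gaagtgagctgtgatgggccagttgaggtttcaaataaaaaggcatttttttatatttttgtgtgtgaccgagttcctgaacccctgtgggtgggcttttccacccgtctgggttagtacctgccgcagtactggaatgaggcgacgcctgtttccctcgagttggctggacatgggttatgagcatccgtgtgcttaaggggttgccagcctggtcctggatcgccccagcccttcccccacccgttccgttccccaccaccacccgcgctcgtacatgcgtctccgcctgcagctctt
The Ldha window holds 5 ACGTG and 2 GCGTG matches, that of Hk2 2 ACGTG matches, that of Slc2a1 1 of each and that of Eno2 none. The second Ldha window holds 0 ACGTG and 2 GCGTG matches. Genes that read higher in CP also have windows with both motifs, as Bnip3 (2 and 3) and Slc16a1 (3 and 2) do, so these 4 windows show no rule. At least 1 of the motifs is present in 34 of the 44 windows of the 31 genes with an entry (77.3%), and in 43.8% of all 32851 windows. The genes' windows are also richer in G and C, with a median of 63.2% against 52.7% over all windows. A match of 5 letters describes the sequence and is not evidence of binding.

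**Figure D1:**
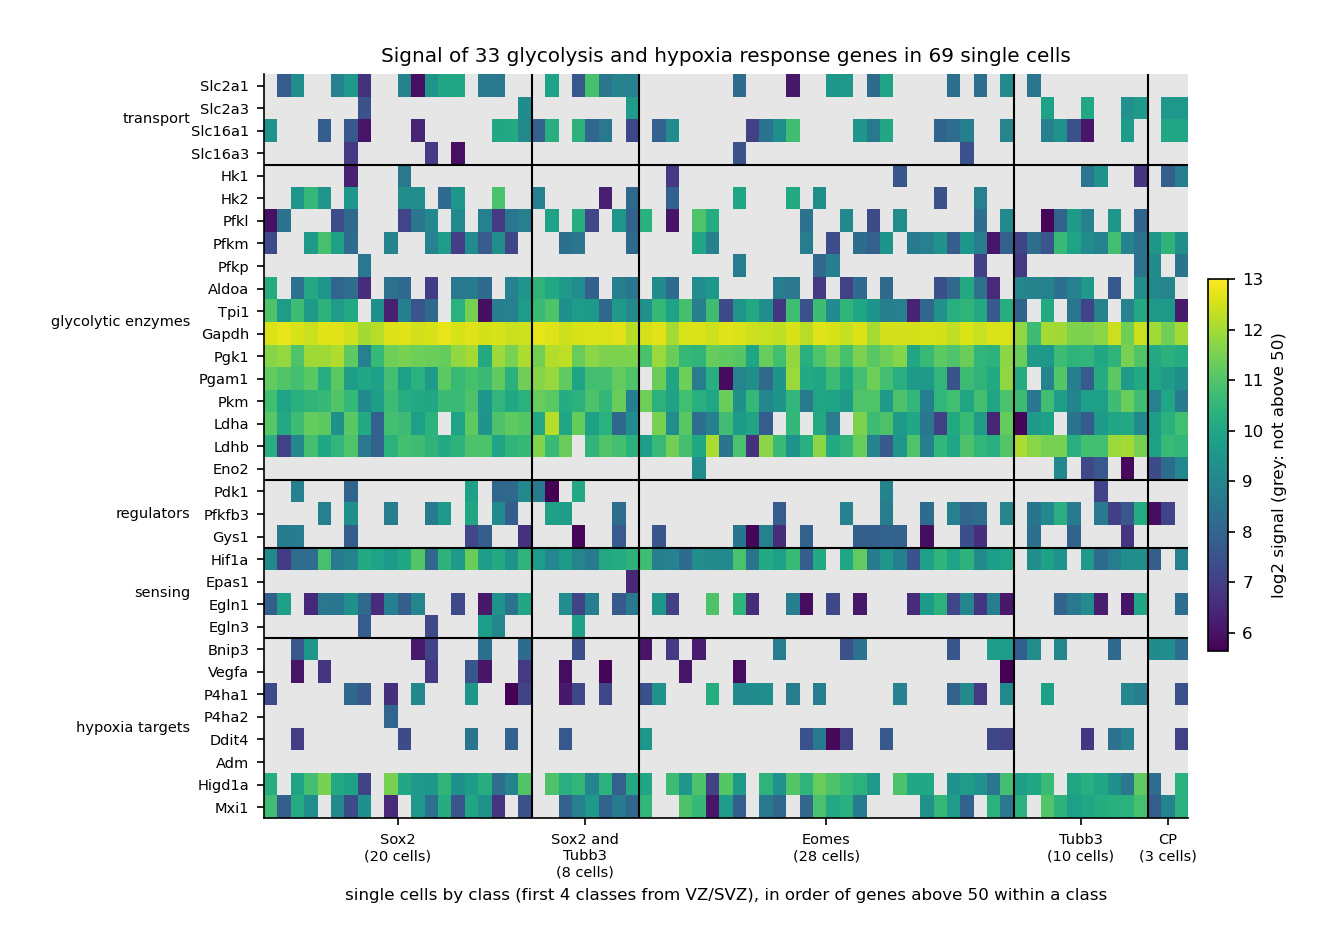
Log2 signal of the 33 genes (rows, by role) in the 69 cells (columns, by class, and within a class in order of the number of genes above 50). Grey marks signals not above 50. Gapdh, Pgk1 and Pkm are coloured in all 69 cells, Adm in none, and Slc2a1 and Hk2 mainly to the left of the Tubb3 class.

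The genes ranged from always to never detected. Gapdh, Pgk1 and Pkm, enzymes of the lower part of glycolysis, were above 50 in all 69 cells, Ldhb in 68, Pgam1 in 67, Hif1a in 65, Tpi1 in 64, Ldha in 63 and Higd1a in 60. Adm, which codes for a vasodilator peptide, was above 50 in 0 of 69 cells, Epas1 and the collagen prolyl hydroxylase gene P4ha2 in 1 cell each, and Egln3 and the lactate exporter gene Slc16a3 in 5 each. The map of all genes by cell shows the rest in between. A median of 17 of the 33 genes (9 to 23) was detected in a Sox2 class cell, 14.5 (10 to 20) in an Eomes class cell and 16 (13 to 19) in a Tubb3 class cell, and the 3 CP cells had 16, 16 and 20.

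CP cells were compared with VZ/SVZ cells first. Of the 33 genes, 5 read at least 1 log2 unit lower in CP (15.2%, against 12.9% of all genes) and 7 at least 1 unit higher (21.2%, against 5.07% of all genes). Genes that are seldom detected cannot differ by much, so the same was counted over the 8784 genes above 50 in at least 10% of cells, of which 26.6% read lower and 9.43% higher. Among the 28 of the 33 genes in that set, 5 (17.9%) read lower and 7 (25%) higher, with a median difference of -0.47 against -0.43 for all 8784 genes. The balance depends on scaling: after quantile normalization 19.6% of the 8784 genes read lower and 18.1% higher, and 3 of the 33 genes lower and 9 higher. After scaling cells to a shared trimmed mean the shares were 21.3% and 17.1%, and the counts 4 and 9. The counts under either scaling are over all 33 genes, seldom detected ones included. They are not matched to the shares of the 8784 genes, and counts for the 28 genes of that set are not given under these scalings. Whether the 28 genes differ from the 8784 in balance after rescaling is thus left undecided. The choice of probe set matters as well: averaged over all probe sets of a gene, 7 of the 12 differences were under 1 unit, those of Hk1, Pfkp, Slc2a3, Slc16a1, Hif1a, Higd1a and Pfkl.

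Within the VZ/SVZ, the Tubb3 class and the Eomes class were each compared with the Sox2 class, which both comparisons share. In the Tubb3 class 6 of the 33 genes read lower (18.2%, against 9.0% of all genes) and 5 higher (15.2%, against 5.44%). Averaged over all probe sets, 4 of these 11 differences were under 1 unit, those of Slc2a3, Pfkfb3, Hif1a and Mxi1. That of Pgk1 went past it (-1.02). Probe sets above 50 in no cell count in these means as well: 1 of 2 sets was above 50 in any cell for Pfkfb3, and 2 of 4 for Slc2a3 and Hif1a. Among the more often detected genes the shares were 21.4% of 28 against 18.6%, and 17.9% against 11.1%. In the Eomes class 2 of the 33 genes read lower (6.06%, against 2.53% of all genes, or 7.14% of 28 against 5.24%) and 0 higher, where 1.78% of all genes and 3.69% of the more often detected ones did. Against the often detected genes, the share that read higher was larger in CP and in the Tubb3 class as processed here. For the Tubb3 class this rests on few genes and depends on scaling. The share of often detected genes that read higher was 12.8% after trimmed mean scaling and 14% after quantile normalization. In both settings 5 of the 33 genes read higher, a count that includes seldom detected genes. With all probe sets averaged, 3 of the 33 genes read higher in CP and 2 in the Tubb3 class. The share over all genes was not computed in that setting, so whether the larger share holds there is not known.

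**Figure D2:**
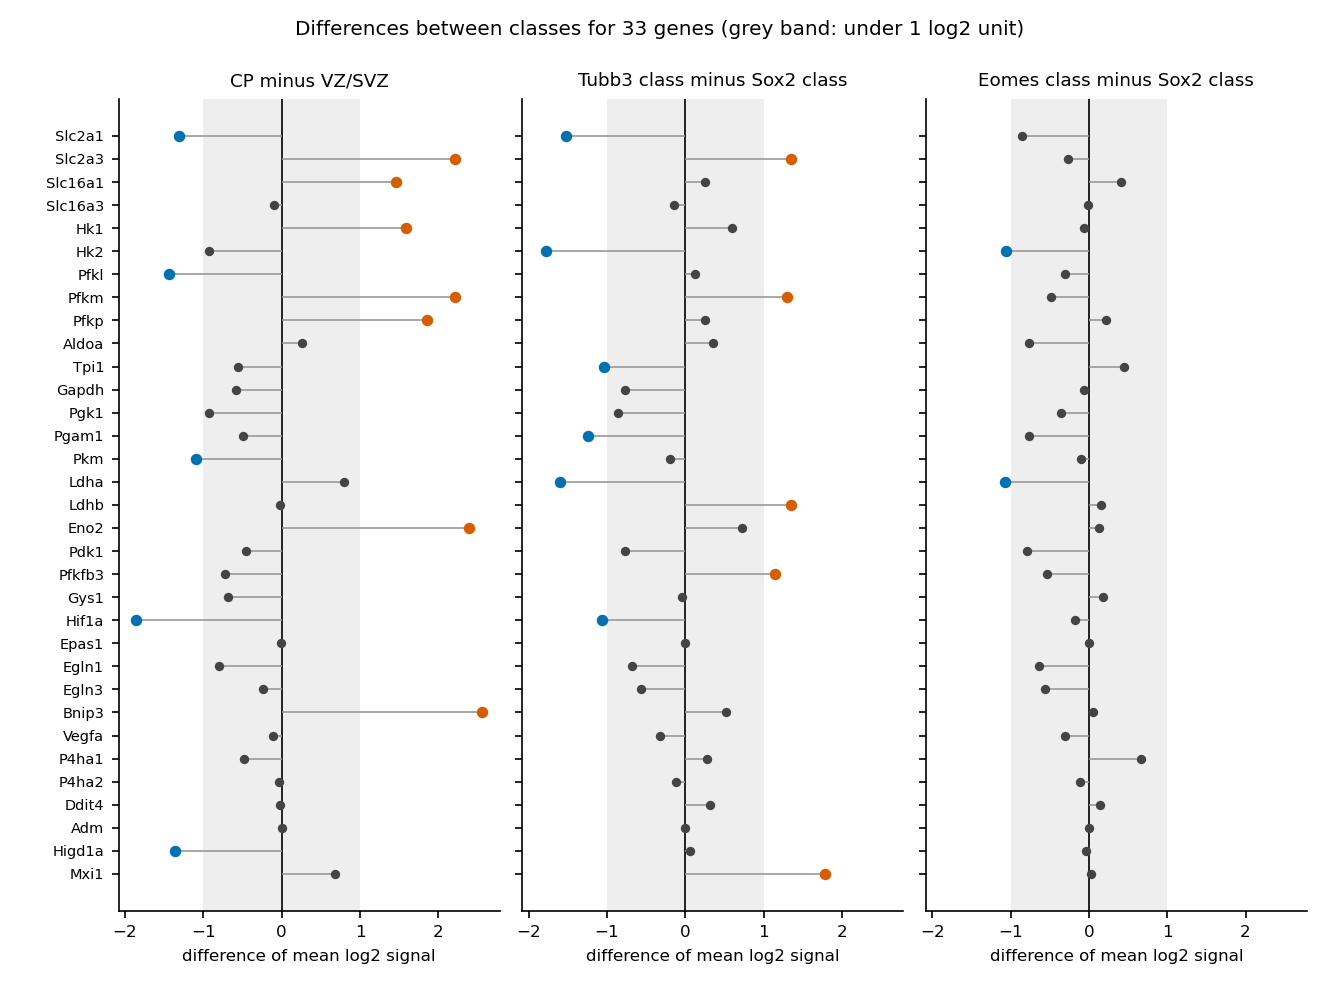
Difference of mean log2 signal for each of the 33 genes in 3 comparisons. Points outside the grey band differ by at least 1 log2 unit (blue lower, orange higher): 12 genes for CP against VZ/SVZ, 11 for the Tubb3 against the Sox2 class, and 2, Hk2 and Ldha, for the Eomes against the Sox2 class.

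Among the transporters, the glucose carriers Slc2a1 and Slc2a3 differed in the classes in which they were mainly found. Slc2a1, the carrier of progenitors, blood vessels and most dividing cells, was above 50 in 12 of 20 Sox2 class cells, where it ranged from 5.64 to 10.05 with a median of 7.25. It was above 50 in 9 of 28 Eomes class cells (highest 9.88), 6 of 8 cells with Sox2 and Tubb3 (highest 10.86), 1 of 10 Tubb3 class cells (8.53) and 0 of 3 CP cells. The mean was 7.45 ± 1.79 in the Sox2 class and 5.93 ± 0.91 in the Tubb3 class, a 2.87-fold difference, and the share of cells differed by -50 percentage points (95% Newcombe interval -69.9 to -12.8, for counting error only). The groups overlap, since 8 Sox2 class cells lay at the floor. In CP it read at least 2.48-fold lower than in VZ/SVZ, though the exact interval for 0 of 3 cells reaches 70.8%.

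Slc2a3, the high-affinity carrier of neurons, was above 50 in 2 of 20 Sox2 class cells, 0 of 28 Eomes class cells, 4 of 10 Tubb3 class cells and 2 of 3 CP cells. The 4 Tubb3 class cells read 10.02, 9.38, 9.58 and 9.84, and the CP cells 9.56, 9.55 and 5.64. The mean difference was 1.36 between the Tubb3 and Sox2 classes and 2.22 between CP and VZ/SVZ cells (6.03 ± 1.17). Over 4 probe sets of the gene, of which 2 were above 50 in any cell, these means were 0.57 and 0.94. No Tubb3 class or CP cell had both carriers: 4 and 2 cells had Slc2a3 alone and 1 and 0 had Slc2a1 alone. In the Sox2 class 11 cells had Slc2a1 alone, 1 Slc2a3 alone, 1 both and 7 neither. Of the 8 cells with Sox2 and Tubb3, 5 had Slc2a1 alone, 0 Slc2a3 alone, 1 both and 2 neither.

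Slc16a1, which carries lactate and pyruvate across the membrane, was above 50 in 32 of 66 VZ/SVZ cells and had signals of 1027, 1016 and 0.45 on the linear scale in CP, with a mean log2 signal 1.46 above that of VZ/SVZ. This difference rests on few cells, as it was 0.73 without CP cell 1 and 0.74 without CP cell 2. Slc16a3 read at most 7.51 in the 5 cells that had it, 3 of the Sox2 class and 2 of the Eomes class.

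**Figure D3:**
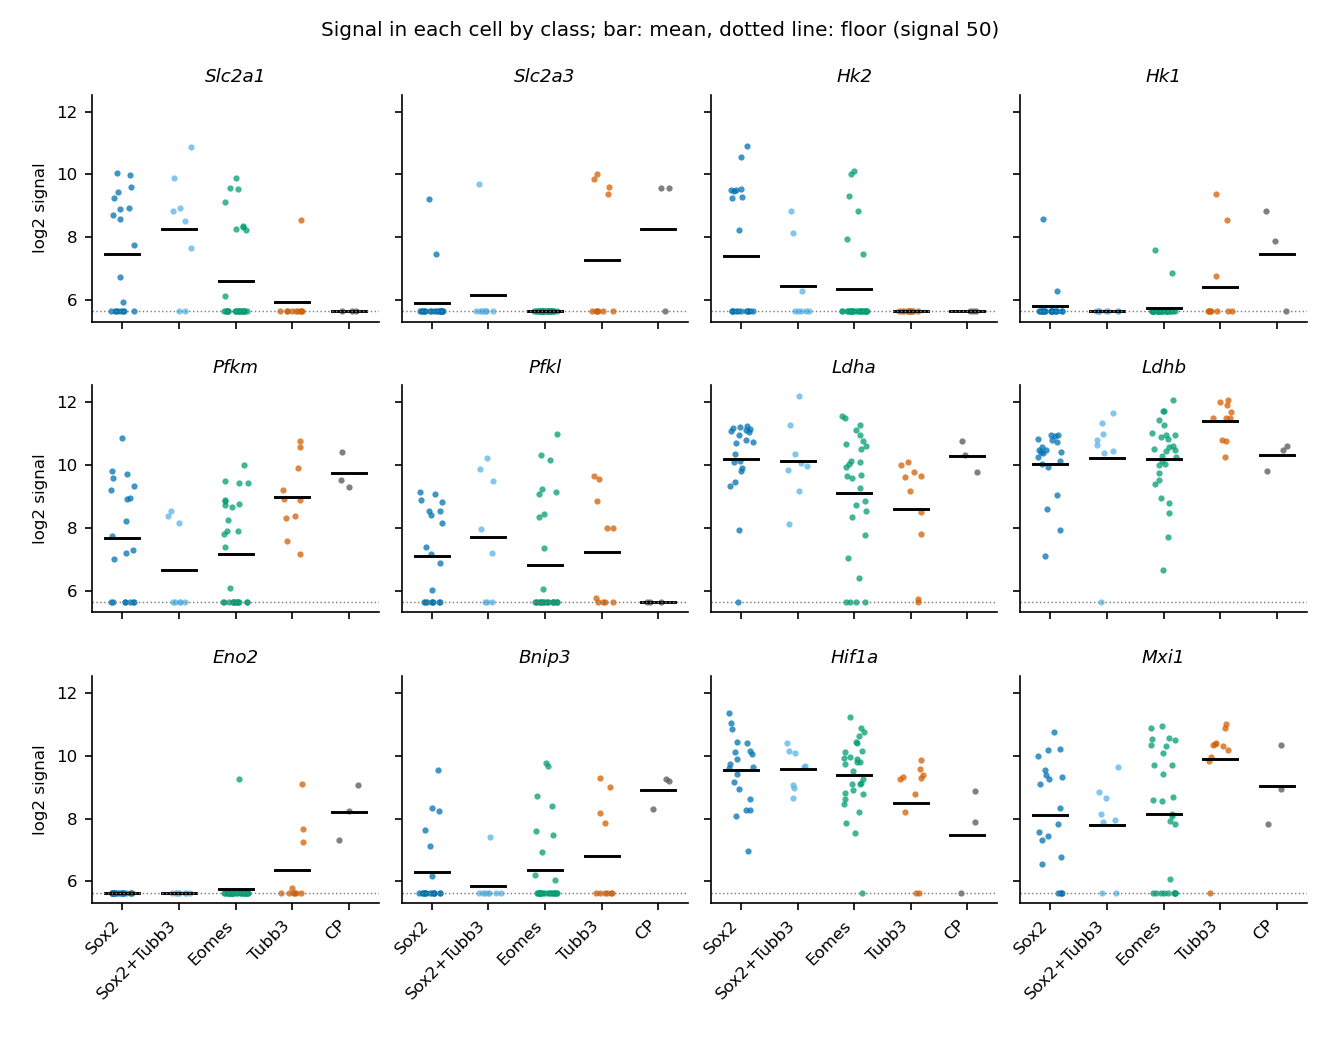
Log2 signal of 12 genes in every cell of the 5 classes; each point is a cell, the bar is the mean and the dotted line the floor at a signal of 50. Slc2a1 and Hk2 are above the floor mainly in cells with Sox2 or Eomes, and Slc2a3 and Eno2 mainly in Tubb3 class and CP cells. Hk1 is above it in a larger share of Tubb3 class and CP cells than of Sox2 and Eomes class cells. Pfkm is above it in all 13 Tubb3 class and CP cells.

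At the first committed steps too, isoforms differed in the share of cells of each class that had them. Hk2, the inducible hexokinase, was above 50 in 9 of 20 Sox2 class cells (highest 10.89), 6 of 28 Eomes class cells, 3 of 8 cells with Sox2 and Tubb3, 0 of 10 Tubb3 class cells and 0 of 3 CP cells. It read at least 3.42-fold lower in the Tubb3 than in the Sox2 class, and its share differed by -45 points (-65.8 to -11.3). Hk1, the hexokinase of adult brain, was above 50 in 2 of 20 Sox2 class cells, 2 of 28 Eomes class cells, 3 of 10 Tubb3 class cells and 2 of 3 CP cells. The CP cells read 8.83, 7.88 and 5.64, 1.59 above VZ/SVZ, or 0.90 without CP cell 1. Between the Tubb3 and Sox2 classes the mean of Hk1 differed by 0.60. Of the 2 probe sets of Hk1, 1 was above 50 in any cell. Of the 9 Sox2 class cells with Hk2, 7 lacked Hk1. The 2 Sox2 class cells with Hk1 also had Hk2, as did 1 of the 2 Eomes class cells with Hk1. No Tubb3 class or CP cell had Hk2, so the 3 and 2 cells with Hk1 there could not have both.

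The 3 phosphofructokinase genes differed from each other. Pfkm, the muscle-type subunit, was above 50 in 13 of 20 Sox2 class cells (5.64 to 10.86, median 7.53), in 10 of 10 Tubb3 class cells (7.16 to 10.77, median 8.91) and in all 3 CP cells (9.30, 10.42 and 9.53). The Tubb3 class read 1.30 above the Sox2 class, and CP 2.21 above VZ/SVZ cells (7.54 ± 1.71). Pfkp, the platelet-type subunit, was above 50 in 7 of 66 VZ/SVZ cells and read 8.48, 5.64 and 9.18 in CP. The difference was 1.86, or 0.60 as the mean over its 3 probe sets, of which 2 were above 50 in any cell. Pfkl, the liver-type subunit, was above 50 in 12 of 20 Sox2 class cells, 6 of 10 Tubb3 class cells and 0 of 3 CP cells. It read at least 2.70-fold lower in CP than in VZ/SVZ. In CP cells Pfkm and no Pfkl was found, while 8 Sox2 class and 6 Tubb3 class cells had both.

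Apart from Eno2 (8 of 69 cells, given below), the enzymes of the middle and lower chain were detected in most cells. Among these Aldoa was detected in the fewest (47 of 69). Gapdh, which makes the first high-energy phosphate, read 12.53 ± 0.17 in the Sox2 class, 12.47 ± 0.17 in the Eomes class, 11.76 ± 0.50 in the Tubb3 class (10.71 to 12.42) and 11.80 ± 0.31 in CP. Pgk1, the next enzyme, read 11.37 ± 0.79, 11.02 ± 0.52, 10.51 ± 0.66 and 10.20 ± 0.15 in the same order. Pgam1, the mutase after it, read 10.60 ± 0.57 in the Sox2 class and 9.36 ± 1.67 in the Tubb3 class. The difference of -1.24 was -0.83 without VZ/SVZ cell 33, a Tubb3 class cell in which Pgam1, Tpi1 and Mxi1 were not above 50. Gapdh and Pgk1 have 3 probe sets each, which differed in size. Between CP and VZ/SVZ they gave -1.91 to -0.59 for Gapdh and -1.61 to -0.47 for Pgk1. Between the Tubb3 and Sox2 classes they gave -0.99 to -0.43 and -1.53 to -0.67. Between the Eomes and Sox2 classes they gave -0.06 to 0.84 and -0.75 to -0.25.

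Pkm, pyruvate kinase, read 10.30 ± 0.47 in the Sox2 class and 10.10 ± 0.89 in the Tubb3 class, and 8.69, 9.96 and 8.86 in CP. The CP difference of -1.10 was -0.86 without CP cell 1, -0.94 without CP cell 3, and -0.44 after scaling cells to a shared trimmed mean. Tpi1, the isomerase of the triose phosphates, was above 50 in 18 of 20 Sox2 class cells and 7 of 10 Tubb3 class cells. Its difference of -1.04 had no stable size, being 0.04 without the cells of letter X and going under 1 unit when any 1 of 13 cells was left out. Aldoa, which cleaves fructose bisphosphate, read 7.84 ± 1.55 in the Sox2 class and differed by 0.77 or less in the 3 comparisons. Aldoa and Tpi1 were read from probe sets of the x type, which may share probes with related transcripts.

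Eno2, the neuronal enolase, was above 50 in 0 of 20 Sox2 class cells (exact interval up to 16.8%), 0 of 8 cells with Sox2 and Tubb3, 1 of 28 Eomes class cells, 4 of 10 Tubb3 class cells and 3 of 3 CP cells. The CP cells read 9.06, 8.25 and 7.31. CP read 2.40 above VZ/SVZ cells, or 5.27-fold, and the share of cells was 92.4 points higher (35.6 to 96.7). The ranges overlap, because the highest VZ/SVZ cell read 9.25.

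The lactate dehydrogenases gave opposite differences between the classes. Ldha, the subunit that favours lactate, read 10.19 ± 1.36 in the Sox2 class (median 10.71), 9.13 ± 1.92 in the Eomes class (median 9.67) and 8.60 ± 1.69 in the Tubb3 class (median 9.40). The Tubb3 class read 3.02-fold lower than the Sox2 class, a difference of -1.59. It was -0.75 within letter X and -0.38 among cells with at least the median number of genes above 50 (2 against 14 cells). Ldhb, the subunit that favours pyruvate, read 10.05 ± 1.06 in the Sox2 class (7.09 to 10.97), 10.20 ± 1.23 in the Eomes class and 11.40 ± 0.60 in the Tubb3 class (10.26 to 12.09). That is 2.56-fold higher in the Tubb3 class, and all 4 probe sets of the gene differed by 1.35 to 1.45. Both genes were above 50 in 9 of 10 Tubb3 class cells, so the 2 classes differ in level rather than in which subunit was found. CP cells did not follow the Tubb3 class: Ldha read 10.77, 10.33 and 9.77 in them, 1.69 above the Tubb3 class mean, and Ldhb 10.49, 10.62 and 9.83, 1.09 below it. The last value was 0.85 below without CP cell 3.

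Among the regulators, Pfkfb3, which makes the activator of phosphofructokinase, was above 50 in 8 of 20 Sox2 class cells and 8 of 10 Tubb3 class cells. Its mean was 1.14 higher in the Tubb3 class, but 0.07 higher without the cells of letter X, 0.90 without VZ/SVZ cell 30 and 0.91 without VZ/SVZ cell 38. All 8 Sox2 class cells with Pfkfb3 also had Pfkm, as did 6 of 8 such Eomes class cells and 1 of 3 such cells with Sox2 and Tubb3, while Pfkm was in all Tubb3 class cells. Pdk1, the kinase that shuts pyruvate out of mitochondria, was above 50 in 6 of 20 Sox2 class cells and 3 of 8 cells with Sox2 and Tubb3, but in 1 of 28 Eomes class cells, 1 of 10 Tubb3 class cells and 0 of 3 CP cells. Between the Eomes and Sox2 classes its share differed by -26.4 points (-48.5 to -5.48) and its mean by -0.80. Gys1, glycogen synthase, was above 50 in 24 of 66 VZ/SVZ cells and in no CP cell, with a mean difference of -0.68.

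The sensing genes were led by Hif1a, the oxygen-regulated subunit, above 50 in 63 of 66 VZ/SVZ cells. It read 9.56 ± 1.11 in the Sox2 class (6.96 to 11.36), 9.38 ± 1.18 in the Eomes class, 8.50 ± 1.57 in the Tubb3 class and 8.88, 5.64 and 7.88 in CP. The CP difference of -1.86 was -0.95 without CP cell 2, and the difference of -1.06 between the Tubb3 and Sox2 classes was -0.74 without either of 2 cells at the floor. Another probe set of Hif1a went the other way in that comparison (0.45). Egln1, the main oxygen sensor, was above 50 in 16 of 20 Sox2 class cells and 6 of 10 Tubb3 class cells, with a mean difference of -0.68. Egln3, the sensor that is itself induced by hypoxia in many cells, was above 50 in 4 of 20 Sox2 class cells, with values up to 9.76, and in 0 of 28 Eomes class cells, a share difference of -20 points (-41.6 to -3.03). Epas1 was above 50 in 1 cell with Sox2 and Tubb3, at 6.46.

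Of the 8 hypoxia targets read, 1 was higher and 1 lower in CP by the rule of size, where 5.07% and 12.9% of all genes were. Bnip3, a mitochondrial protein of mitophagy, was above 50 in 20 of 66 VZ/SVZ cells and in all 3 CP cells, at 8.31, 9.25 and 9.19. The difference was 2.56, or 5.90-fold, and it lay between 1.84 and 4.41 under the alternatives. The highest VZ/SVZ cell, at 9.77, overlaps with CP. Within the VZ/SVZ the Sox2 and Tubb3 classes had means of 6.3 and 6.82. Higd1a, a small protein of the respiratory chain, read 10.35, 5.64 and 8.29 in CP, and its difference of -1.36 was -0.14 without CP cell 2.

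Mxi1, an antagonist of Myc, was the hypoxia target with the largest difference between the Tubb3 and Sox2 classes. It was above 50 in 9 of 10 Tubb3 class cells and in 16 of 20 Sox2 class cells. The Tubb3 class read 9.89 ± 1.54 (median 10.33) and the Sox2 class 8.11 ± 1.73 (median 8.09), a 3.44-fold difference. Its other probe set differed by 0.07. Vegfa, the main angiogenic factor, read at most 7.60 in the 6 Sox2 class cells and at most 6.08 in the 3 Eomes class cells that had it, and was above 50 in no Tubb3 class or CP cell. P4ha1, a collagen prolyl hydroxylase, was above 50 in 8 of 20 Sox2 class, 13 of 28 Eomes class and 3 of 10 Tubb3 class cells. Ddit4, an inhibitor of mTORC1, was above 50 in 4 of 20, 8 of 28 and 3 of 10 cells.

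The Eomes class differed from the Sox2 class by at least 1 log2 unit in 2 genes. Hk2 read 1.06 lower and Ldha 1.07 lower, but neither stayed past 1 unit within letter X alone (-0.37 and -0.63) or without it (-0.93 and -0.69). Slc2a1 read 0.86 lower and Pdk1 0.80 lower. The 8 cells with Sox2 and Tubb3 also differed little from the Sox2 class. By the rule of size, 1 of the 33 genes was higher and 1 lower (3.03% each), against 421 and 266 of all 18194 genes. Slc16a1 read 1.24 higher, but under 1 unit higher without either of 2 cells. Pfkm was at a difference of -1.01, which went under 1 unit when any 1 of 14 cells was left out. The Eomes class holds 21 cells that also had Sox2 and 7 that did not. Ldha read 9.65 ± 1.67 in the former and 7.56 ± 1.86 in the latter, and was above 50 in 20 of 21 and 4 of 7 cells. Slc16a1 was above 50 in 13 of 21 cells with Sox2 and in 0 of 7 without it, a share difference of -61.9 points (-79.2 to -20.7). Pfkl went the other way, with 5 of 21 and 5 of 7 cells and a mean 2.40 higher in the cells without Sox2. Hif1a differed by -1.06, under 1 unit when any 1 of 4 cells was left out. In the cells without Sox2, 3 of the 33 genes read lower (9.09%) and 1 higher (3.03%) by the rule of size. Of all 18194 genes, 762 read lower and 642 higher.

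Cells of the Sox2 class, taken as single apical progenitors though many had intermediate progenitor markers, were then set against each other. Of the 33 genes, 15 were above 50 in at least 10 of its 20 cells. The smallest SD over cells were 0.17 for Gapdh, 0.47 for Pkm and 0.57 for Pgam1, and the largest 1.81 for Tpi1, 1.79 for Slc2a1 and Pfkm, 1.73 for Mxi1, 1.66 for Higd1a and 1.55 for Aldoa. The median SD of the 15 genes was 1.44, against 1.53 for the 4973 genes detected as often. Above a mean of about 8.5 the median SD of all genes is smaller at higher levels, and the lys, dap and phe spikes had SD of 0.19, 0.55 and 1.01. Pkm varied less than most genes of its level, since 0.88% of the 452 genes with a mean within 0.5 log2 units had a smaller SD. Tpi1, by contrast, had a larger SD than 79.0% of the 976 genes near its mean. Leaving out VZ/SVZ cell 4, in which Pgk1 read 8.85, lowers the SD of Pgk1 from 0.79 to 0.53. Leaving out VZ/SVZ cell 3, the 1 cell of the class without Ldha, lowers that of Ldha from 1.36 to 0.86.

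**Figure D4:**
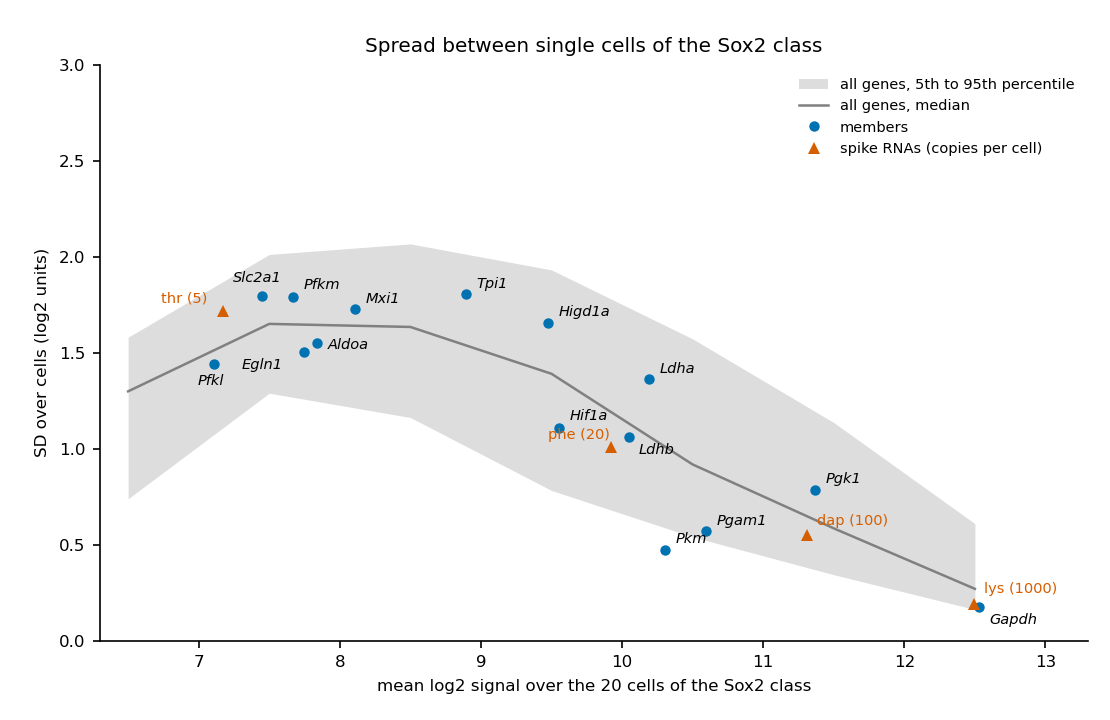
SD over the 20 Sox2 class cells against mean log2 signal, for the 15 genes detected in at least 10 of them (blue) and the 4 spike RNAs with their copies per cell (orange); the line and band give the median and the 5th to 95th percentile of all genes in bins of 1 log2 unit. Pkm lies below the band and the other 14 genes lie in or at the edge of it.

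Pairs of genes were ranked by Spearman's rho over the 20 Sox2 class cells, which share amplification, arrays and differences in depth. The highest values were 0.74 for Aldoa and Ldha, 0.63 for Pfkm and Pkm, 0.58 for Pgk1 and Pkm, and 0.57 for Pgk1 and Pgam1 and for Aldoa and Higd1a. The lowest were -0.50 for Ldha and Slc2a1 and -0.45 for Egln1 and Mxi1. Over the other 46 VZ/SVZ cells rho was 0.59 for Pgk1 and Pgam1, but 0.03 for Aldoa and Ldha and -0.28 for Pfkm and Pkm. The median over the 45 pairs of 10 enzyme genes was 0.24, over all 105 pairs 0.10, and over all pairs of the 4973 genes 0.03 (5th to 95th percentile -0.36 to 0.42). Higd1a and Mxi1 were the only 2 hypoxia targets detected often enough, with a rho of 0.12. With the number of genes above 50 in a cell, rho was 0.50 for Hif1a and between -0.37 and 0.44 for the other 14 genes.

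**Figure D5:**
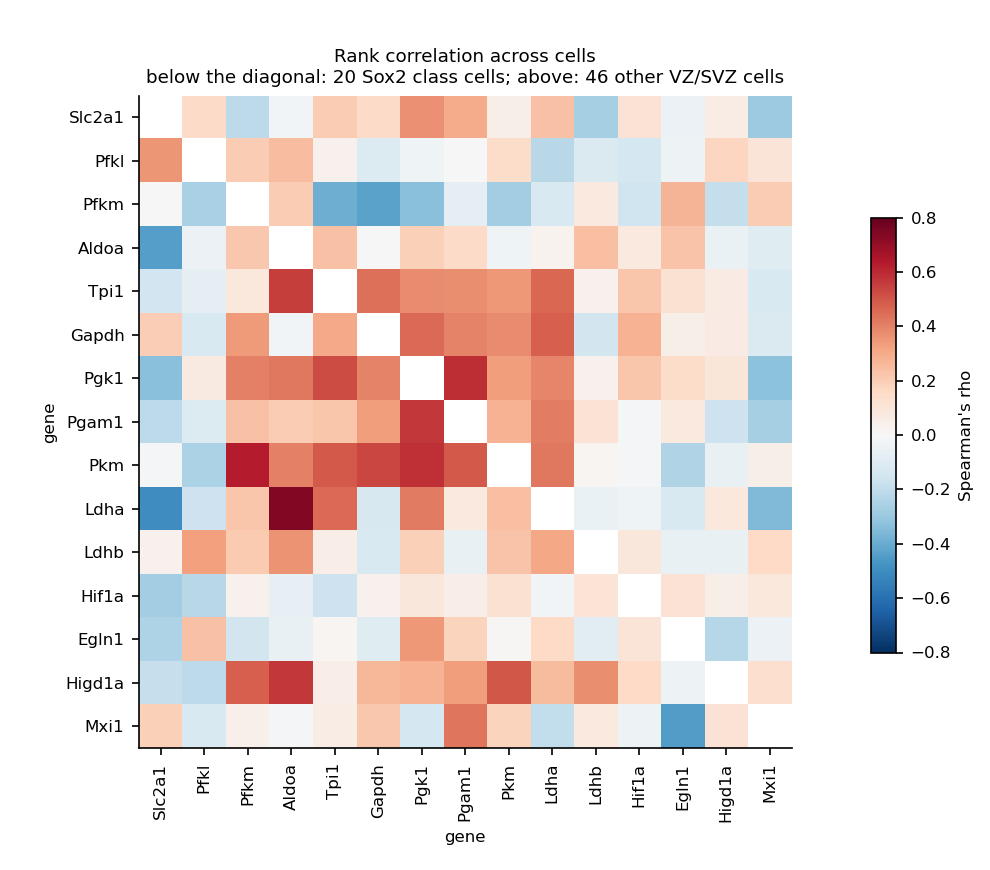
Spearman's rho between 15 genes, over the 20 Sox2 class cells below the diagonal and over the 46 other VZ/SVZ cells above it. The block of lower glycolysis genes around Pgk1, Pgam1 and Pkm is positive on both sides, while Aldoa and Ldha reach 0.74 below the diagonal and 0.03 above it.

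Hypoxia-inducible genes that were seldom detected were compared by the cells that had them. All 4 Sox2 class cells with Egln3 also had Slc2a1, which 12 of the 20 cells had. Of the 9 with Hk2, 7 had Slc2a1. Pdk1 was found with Vegfa in 3 cells, with Ddit4 in 3, with Hk2 in 3, with Slc2a1 in 3 and with Egln3 in 1 of its 6. The number of detected genes ran from 9 in VZ/SVZ cell 48 to 23 in VZ/SVZ cell 16, with 4879 and 4727 genes above 50.

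Genes of the same pathways outside the list were read for the same comparisons. Of 22 other glycolysis genes read, 5 were at least 1 log2 unit lower and 2 higher in CP, 4 lower and 0 higher in the Tubb3 class, and 1 lower and 0 higher in the Eomes class. The 5 genes lower in CP are 22.7% of the list, against 12.9% of all genes and 26.6% of often detected genes. The list was not filtered by detection, and 5 of its genes were above 50 in no cell. Of all genes, 5.07% were higher in CP, and 9.0% were lower and 5.44% higher in the Tubb3 class. In the Eomes class 2.53% of all genes were lower and 1.78% higher. Aldoc, the aldolase of radial glia and astrocytes, was above 50 in 20 of 20 Sox2 class cells (mean 11.68), 19 of 28 Eomes class cells (8.58), 2 of 10 Tubb3 class cells (6.604) and 0 of 3 CP cells. Pfkfb4, a relative of Pfkfb3, read 2.55 higher in CP than in VZ/SVZ, with 3 of 3 and 10 of 66 cells above 50. Bpgm and Pdhb read 1.68 and 1.54 lower in CP. Of 6 pentose phosphate genes, 2, 2 and 1 were lower in the 3 comparisons and none higher. Tkt, transketolase, read 9.61 in the Sox2 class, 8.05 in the Tubb3 class, 7.62 in the Eomes class and 6.42 in CP. Of 26 other hypoxia genes, 3 were lower and 1 higher in CP, 1 lower and 1 higher in the Tubb3 class, and 0 lower and 1 higher in the Eomes class. The 3 lower in CP are 11.5% of the list, near the 12.9% of all genes. Ndrg1, a hypoxia-induced gene, was above 50 in 3 of 3 CP cells (mean 10.11) and 3 of 66 VZ/SVZ cells. Fam162a read 1.90 lower in CP, and Kdm3a, a histone demethylase, 1.72 lower in the Tubb3 class.

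By title letter, Slc2a1 was above 50 in 5 of 7 cells of letter A, 4 of 14 of B, 1 of 7 of C, 1 of 7 of D, 0 of 3 of E and 17 of 31 of X. Ldha read lowest in C (7.71 ± 1.90) and D (8.15 ± 1.85) and highest in E (10.29 ± 0.50) and X (10.13 ± 1.31), and these neighbours in the order differ by less than their SD. Ldhb read highest in D (11.30 ± 0.70). Within letter X, which holds 15 Sox2 class and 3 Tubb3 class cells, the Tubb3 class read 1.64 lower for Slc2a1, 1.93 lower for Hk2, 0.75 lower for Ldha and 1.38 higher for Ldhb. Without letter X, with 5 and 7 cells, these differences were -1.89, -1.29, -1.41 and 1.87, in the same direction as within it. Without letter X the Sox2 class cells have the letters A and B and the Tubb3 class cells the letter D. Class and letter cannot be told apart there.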

How the data were processed

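Gene expression was measured in 69 single mouse cells, 66 of the VZ/SVZ and 3 of the CP, on Affymetrix arrays. The deposited intensities, 1 linear value per probe set, were computed by the authors; the submitters' processing notes name MAS5, with no version, and no source used here gives the target of its scaling. Depth was judged by the number of genes above 50 per cell, and the number of cells limits the precision.

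Each of 18194 genes was read from its brightest single-gene probe set (34958 of 45101 probe sets; 932 have several genes and 9211 none in the platform annotation, which can be old). Signals under 50 were set to 50, and means of log2 values were compared between classes. Shares carry exact Clopper-Pearson 95% intervals and share differences Newcombe intervals, for counting error only. Where no cell of the lower class was above 50, the fold is a bound against that floor. No pair of cells had identical values (0 pairs), and log2 values of 2 cells correlated at 0.475 to 0.672. The size rule was tested on simulated data. No doublet caller was run.

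The members, lists, marker genes and alternatives were chosen with earlier results of these data known, and the comparison within letter X was added after the files were seen. Genes described in full were those past 1 log2 unit (at most 12 per comparison), the 6 largest and 3 smallest SD of the Sox2 class, at most 4 genes per other list, and the 5 highest and 2 lowest correlations. Genes given otherwise are members, which are all accounted for. The alternatives were other floors (a signal of 6.26, from the TrpnX controls, or 100), trimmed mean (2% at either end) and quantile scaling, the mean of all probe sets, medians, a marker threshold of 100, subsets of cells, and leaving out 1 cell. Promoter windows are from RefSeq. Python 3 with numpy, pandas, scipy and matplotlib was used.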

Additional observations from a re-analysis of the deposited data

Results flagged for a closer look

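Among genes above 50 in every cell of a title letter with 7 cells (19 combinations of gene and letter), 3 had a cell whose gap to its nearest neighbour exceeded Dixon's 95% critical share of the range (0.568); chance gives about 1 in 20. In letter A, VZ/SVZ cell 4 was the lowest for Gapdh, at 12 (next cell 12.58), and for Pgk1, at 8.849 (next 11.25). That cell had 4822 genes above 50. In letter D, VZ/SVZ cell 33 was the lowest for Gapdh, at 10.71 (next 11.42), with 3792 genes above 50. What sets these cells apart was not tested.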

How the results depend on the processing

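These data hold 1 sample per group, so no result has a replicate check, and cells under the floor have no order. No paired analysis was possible because no label ties cells of different groups to a shared embryo or culture. The direction of 24 of the 25 named differences held or came to 0 under every alternative run; the exception was Tpi1 between the Tubb3 and Sox2 classes, at 0.0377 without letter X and 1.157 in cells with at least the median number of genes above 50 (2 against 14 cells). Counts of genes past 1 log2 unit moved by over 1.5 times as follows. With the TrpnX floor, 10 genes were lower in CP, 10 in the Tubb3 class and 7 in the Eomes class; with a floor of 100, 3 were lower in CP, 3 higher in the Tubb3 class and 0 lower in the Eomes class. Quantile normalization gave 3 lower in CP. Averaging all probe sets of a gene, 3 were higher in CP and 2 in the Tubb3 class. In cells with at least the median number of genes above 50, 3 were lower and 9 higher in the Tubb3 class and 1 lower in the Eomes class. For the Eomes class, medians gave 5 lower, leaving out letter X 4 lower and 1 higher, and letter X alone 2 higher. Smaller moves came from leaving out 1 CP cell, where 5 to 6 genes were lower and 6 to 9 higher in CP. The median SD of the Sox2 class was 2.17 with the TrpnX floor and 1.088 when all probe sets were averaged. The rho of Higd1a and Mxi1 was 0.325 for averaged probe sets, -0.30 without letter X (5 cells) and 0.2185 in the deeper cells (14). Beyond the floors' construction, the cause of these moves was not tested.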
